A study of Zea mays with 9 samples.

Results

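The tassel is the male inflorescence at the top of the maize plant. While it is only a few millimetres long it consists largely of meristems: an inflorescence meristem at each tip produces axillary meristems, which become long branches, paired spikelets and finally florets. Homeobox genes of the KNOX class keep meristem cells undetermined, the CLAVATA pathway limits the size of the meristem, auxin transport and auxin-response genes start the axillary meristems, and the ramosa, SBP-box and MADS-box genes set what they become.

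The tissue described here was wildtype tassel of 2 to 4 mm from field-grown maize of the inbred line B73. It made up 3 of the 9 RNA-seq libraries of a field experiment, and all 3 libraries labelled as wildtype tassels were taken. The other 6 libraries came from tassels of the same length and background, 4 of the needle1 mutant ndl1 and 2 of Bif1;Bif4, and are not described. The wildtype group carries no mutant allele and no treatment according to the labels. The labels do not say whether the 3 libraries came from separate plants or from pools, so the spread between them may be in part technical. A whole tassel holds many cell types, so that fewer cells of a type and less RNA of a gene per cell cannot be told apart in any value below.

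Values are normalized counts, which are the reads of a gene divided by the DESeq2 size factor of the library. Sets of 3 values are given for replicates 1, 2 and 3 in that order, and errors are the SD over these 3 libraries (n = 3). The libraries held 20238547, 20217232 and 16863087 reads assigned to genes, so that replicate 3 was the shallowest. A single read was worth 0.966, 0.964 and 1.16 normalized counts. With 1 group there is no contrast to test, so variation is described by the ratio of the highest to the lowest of the 3 libraries and no p-value is given. Intervals printed with a ratio are exact binomial 95% intervals of the reads, and they cover counting error only. Gene lengths were not used, so levels are compared between libraries and not between genes.

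The tissue label was set against marker genes. All 13 tassel markers that could be matched, among them kn1, ids1, ub2, ub3 and td1, had a mean of at least 1. This level was also reached by 66.7% of all identifiers, all 7 leaf markers and 6 of 7 anther and meiosis markers. It therefore does not set tassel apart from those tissues. The summed level of the tassel markers was 21702, 19554 and 18452. The rarest of them was bd1, with a mean of 41.5. Leaf markers summed to 901, 1025 and 1024, nearly all of it from Pep1 (GRMZM5G899080) and ME1, while ssu1, the Rubisco small subunit gene, had only 1.93, 2.89 and 11.6. Of the vascular and secondary wall markers, both cesa11 identifiers were at 0 and cesa10 held most of a sum of 889, 931 and 1084. Among anther and meiosis markers ms8 was at 0 and ms23 had 1.93, 0 and 2.32, but ms32 had 940, 945 and 998 and afd1, a meiotic cohesin gene, had 723, 700 and 706. The root gene rtcs1 was at 0, whereas rth3, named from root hairs, had 550, 543 and 726.

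Genes were spread over a wide range of levels. Of 39305 gene identifiers, 26200 (66.7%) had a mean of at least 1 normalized count and 10404 (26.5%) had no read in any wildtype library. The most populated class above 0 was 100 to under 1000, with 11217 identifiers (28.5%) holding 24.9% of all normalized counts. The 5395 identifiers between 1000 and 10000 were 13.7% of the list and held 63.9% of the counts. At the top, 101 identifiers reached 10000 and held 10.04%. At the other end, 2208 identifiers had reads in 1 library only. Of these, 2071 had 3 reads or fewer, so presence in a single library mostly rested on the smallest counts.

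**Figure D1:**
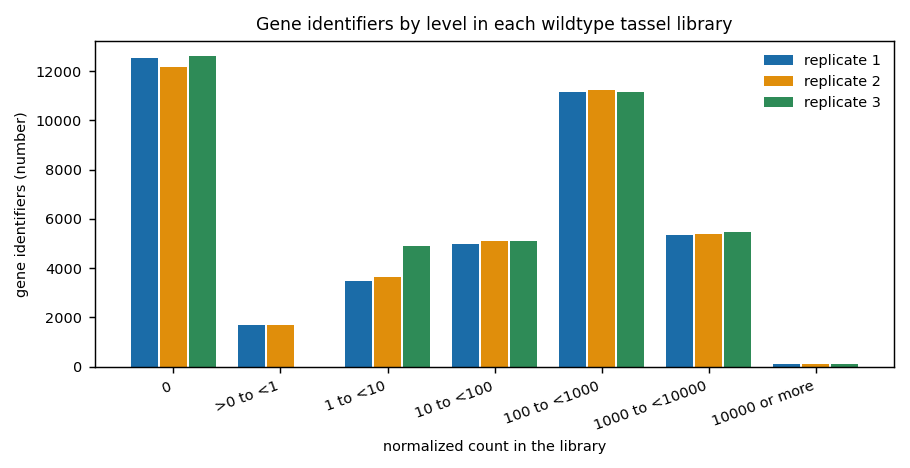
Number of gene identifiers (vertical axis) in each class of normalized count (horizontal axis), with 1 bar for each of the 3 wildtype libraries. The bars of the 3 libraries are of nearly equal height from 10 upward, for example 11173, 11232 and 11143 identifiers at 100 to under 1000; replicate 3 has none above 0 and under 1 because 1 of its reads is worth 1.16.

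Identifiers of different kinds differed in how often they were detected. A mean of at least 1 was reached by 25079 of the 36125 GRMZM gene models (69.4%) and by 28 of the 154 microRNA precursors (18.2%). No precursor reached a mean of 100. Such precursors are cut soon after transcription, and mature microRNAs were not measured by these mRNA libraries.

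The reads were not concentrated in a few genes. The most abundant gene took 0.677 ± 0.163% of the reads of a library, the 10 most abundant 2.83 ± 0.236%, the 100 most abundant 9.99 ± 0.183% and the 1000 most abundant 33.6 ± 0.360%. It took 2238 genes to reach 50% of the reads and 10010 to reach 90%. A descriptive name was available for 7 of the 10 and 44 of the 100 most abundant genes. Of those 100, 2 were at least 2-fold apart between libraries, near the 3.58% of all genes with a mean of at least 50.

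The named genes with most reads included genes of the cytoskeleton, protein folding and synthesis, sugar use, the cell wall and chromatin. The gene with most reads was grp1 (GRMZM2G080603), named as a glycine-rich protein gene, at 130799, 164380 and 101246. It was highest in replicate 2 and lowest in replicate 3, by 1.62-fold. The alpha-tubulin genes TUA1/TUA2 (GRMZM2G153292) with 72354, 71007 and 67407 and tua4 with 66603, 67353 and 63692 followed at ranks 2 and 4, and both differed by less than 1.1-fold between libraries.

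Protein folding and synthesis also stood high in reads. The HSP70 gene hsp70-4 had 70032, 74409 and 56321, and HSP90-2 had 30985, 28235 and 25070. The translation elongation factor gene EF1-A had 29704, 26728 and 26791. All 3 genes varied by less than 1.4-fold, with the chaperones lowest in replicate 3. Genes of carbohydrate use were among the 25 named genes with most reads as well: sucrose synthase (ss2, also sus1) with 29475, 23487 and 24836, enolase (eno2) with 21118, 18949 and 20304, and the glycolytic GAPC1 with 17676, 18795 and 19348.

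Cell wall and chromatin genes completed the upper ranks. HRGP, a hydroxyproline-rich glycoprotein of the cell wall, had 40311, 42819 and 40274. MNB1B, a chromatin protein of the HMG type, had 28033, 33271 and 32884. The linker histone gene his1a had 16282, 15274 and 17457, and HDT1, a plant-type histone deacetylase, had 16815, 15973 and 15174. ERECTA, a receptor kinase gene of organ growth in Arabidopsis, had 24751, 26467 and 24018, rank 19 of all identifiers. None of these differed by 1.5-fold between libraries. Tubulins, ubiquitins, histones and heat shock genes exist as near-identical copies, so that the division of reads among their members is uncertain.

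A single one of the 25 abundant named genes was at least 2-fold apart, against 6.82% of named genes with a mean of at least 50. The lipoxygenase gene lox1 (GRMZM2G156861) had 4854 in replicate 1, 15661 in replicate 2 and 26830 in replicate 3, a ratio of 5.53 (interval 5.36 to 5.70), so its place among the abundant genes rested on replicates 2 and 3.

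Variation between the libraries was small for most genes. Among 18511 genes with a mean of at least 50, the median ratio of the highest to the lowest library was 1.17 and the median coefficient of variation was 8.36%. The median chi-square per degree of freedom against equal levels was 3.48, where counting error alone gives a mean of 1 and a median below 1. This median grew with level from 1.77 in the class of 10 to under 100 to 64.5 in the class of 10000 and more. At least 2-fold between libraries were 663 genes, 3.58% of those considered, and at least 10-fold were 41 (0.221%). Genes with a descriptive name were 2-fold apart more often, 127 of 1863 or 6.82%. Members of the lists and families below were found by such names, so 6.82% is the nearer background for them.

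Replicates 1 and 3 were the most different pair. They were at least 2-fold apart at 502 genes, whereas replicates 1 and 2 were at 256 and replicates 2 and 3 at 269. The common biological coefficient of variation from edgeR was 0.1644 for replicates 1 and 3, against 0.1116 for replicates 1 and 2 and 0.1270 for replicates 2 and 3. Of the 663 genes, 409 were highest in replicate 3, 131 in replicate 2 and 123 in replicate 1, which is 2.21%, 0.708% and 0.664% of the genes considered. The order with replicate 3 highest and replicate 1 lowest held for 321 of them (48.4%), against 20.7% of all genes considered. Without replicate 3 the count was 229, without replicate 1 it was 285 and without replicate 2 it was 503. The ratio of a gene over 2 libraries cannot exceed its ratio over 3, so a fall was largely given in advance. The fall was larger without the first or the third library than without the second.

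**Figure D2:**
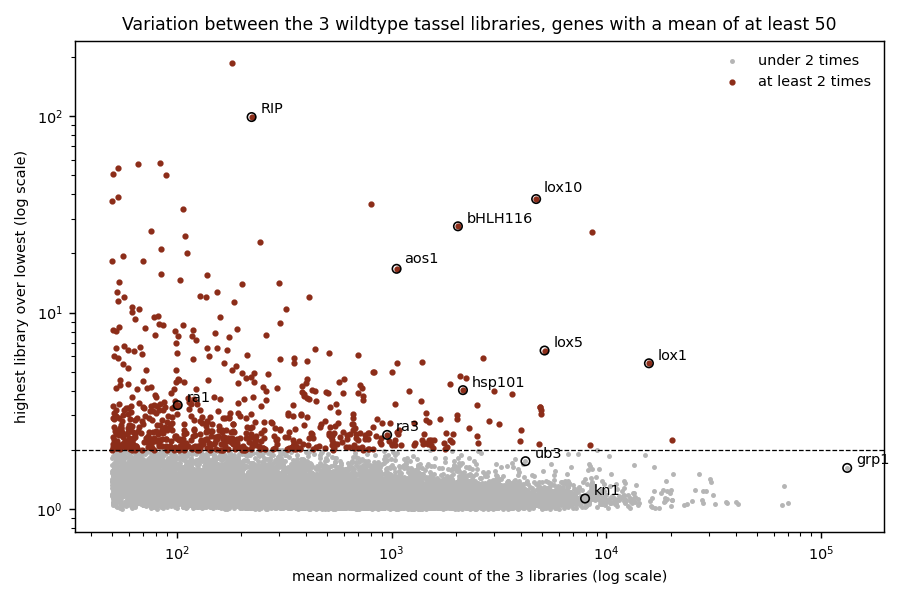
Mean normalized count of the 3 libraries (horizontal, log scale) against the ratio of the highest to the lowest library (vertical, log scale) for 18511 genes; dark red points lie on or above the dashed line at 2-fold and circled genes are named. The 663 dark red genes lie mostly at low means, with lox10, lox1, lox5, bHLH116 and aos1 among the exceptions above a mean of 1000.

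The regulators of the tassel were read from 9 lists of known genes. These gave 87 matched genes, of which 79 had a mean of at least 1, 2 were at 0 and 60 had a mean of at least 50. Of these 60, 6 were at least 2-fold apart between the libraries (10%). The share was 3.58% of all genes considered and 6.82% of those with a descriptive name. The 6 were BIF1, ra1, ra3, ts1, ts2 and opr7. Without replicate 3 none of the regulators was 2-fold apart, against 229 of 18468 over all genes. Without replicate 1 there were 2, against 285 of 18531. Most of the 6 calls therefore rest on the difference between those libraries.

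**Figure D3:**
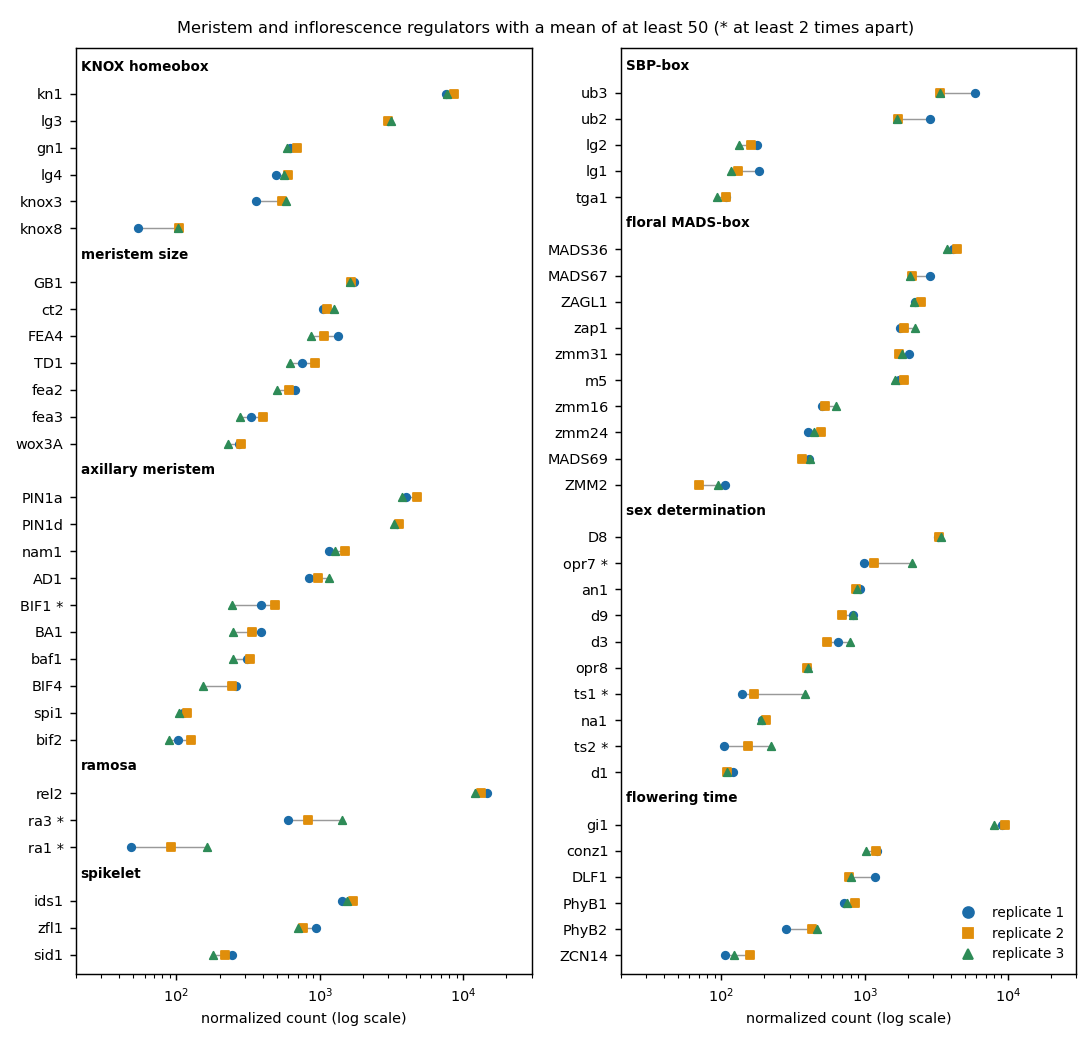
Normalized count (horizontal, log scale) of each regulator with a mean of at least 50 in replicate 1 (blue circles), replicate 2 (orange squares) and replicate 3 (green triangles), grouped by list and ordered by mean within a list; an asterisk marks genes at least 2-fold apart. The 3 symbols nearly coincide for most genes, such as D8 with 3274, 3294 and 3391, and spread widely for ra1, ra3, ts1, ts2 and opr7, while ub2 and ub3 have replicate 1 alone to the right.

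The 6 KNOX homeobox genes of the list were all present. The founding member kn1, which keeps meristem cells from differentiating, had 7574, 8595 and 7706, a mean of 7958 ± 555. The related gene lg3, known from a leaf mutant, had 2979, 2997 and 3150. Both differed by at most 1.13-fold between libraries. The remaining members were gn1 at 623, 695 and 592, lg4 at 496, 605 and 560, knox3 at 360, 547 and 585 and knox8 at 54.1, 105 and 102. None of the 6 reached 2-fold, with knox8 closest at 1.94, against 3.58% of all genes considered. At that share so small a list usually holds none. Of the 6, 5 were lowest in replicate 1, as were 33.5% of all genes considered.

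Genes that limit meristem size had a median ratio of 1.32 between the highest and the lowest library, against 1.17 over all genes considered. The CLAVATA-type receptor genes td1, written TD1, had 756, 933 and 618 and fea2 had 668, 608 and 505, while fea3, a further leucine-rich repeat receptor gene, had 331, 400 and 280. FEA4, a bZIP factor gene, had 1343, 1076 and 874. All 4 were lowest in replicate 3, and their ratios lay between 1.32 and 1.54.

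The G protein genes that act with the receptors differed by 1.20-fold and 1.07-fold. The alpha subunit gene ct2 had 1050, 1119 and 1264, and the beta subunit gene GB1 had 1742, 1659 and 1635. WUSCHEL-type genes, active in a few cells of a meristem, had few reads in the whole tassel: wus1 had 28.0, 34.7 and 29.0 and wus2 had 22.2, 10.6 and 17.4. For wus2 the interval of the ratio, 0.982 to 4.76, includes no difference. Of the WOX genes, wox3A (GRMZM2G122537) had 272, 282 and 227, whereas wox4 had 0.966, 4.82 and 1.16, at about the level of 1 to 5 reads. None of the 7 members with a mean of at least 50 was 2-fold apart, against 3.58% of all genes considered.

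Genes that start axillary meristems were expressed in all 3 libraries. The auxin transporter genes PIN1a and PIN1d had 3976, 4771 and 3749 and 3471, 3572 and 3305. The auxin synthesis gene spi1 had 112, 119 and 104, and bif2, which encodes a kinase acting on auxin transport, had 103, 126 and 88.2. The ratios of these 4 genes were between 1.08 and 1.43.

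The Aux/IAA repressor genes BIF1 and BIF4 are known from mutant tassels that lack branches and spikelets. The first, BIF1, had 392, 489 and 242, highest in replicate 2 and lowest in replicate 3 by 2.02-fold (interval 1.72 to 2.38), just past the 2-fold line. BIF4 had 262, 246 and 153, a ratio of 1.71, again lowest in replicate 3. The bHLH gene BA1, which marks the boundary of a new axillary meristem, had 389, 334 and 247, and baf1, the AT-hook gene acting before it, had 311, 329 and 247. In all, 8 of the 10 members of the list were lowest in replicate 3. Over all genes considered, replicate 3 was lowest at 35.6%. The boundary gene nam1, at 1164, 1512 and 1287, was an exception with its lowest value in replicate 1.

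The ramosa genes, which make spikelet pairs out of what would be branches, were split. The zinc finger gene ra1 had 48.3 in replicate 1, 91.5 in replicate 2 and 164 in replicate 3. All 3 libraries stood apart, with a ratio of 3.39 (interval 2.44 to 4.77). The trehalose phosphatase gene ra3 had 601, 826 and 1436 in the same order, a ratio of 2.39 (interval 2.17 to 2.64).

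The third member, rel2, a corepressor gene of the TOPLESS type, went the other way within a narrow range, with 14711, 13321 and 12167 and a ratio of 1.21. SRA, a paralog of ra3, was close to absent with 0.966, 0 and 1.16, which is 1, 0 and 1 reads.

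Of the spikelet and branch determinacy genes, bd1 and gt1 differed widely between libraries, and both had few reads. The ERF gene bd1, which fixes the identity of the spikelet meristem, had 2.90, 69.4 and 52.2, where the first value is 3 reads. Its ratio was 23.9 (interval 7.87 to 119). With a mean of 41.5 it was below the level at which genes were counted as varying. The homeobox gene gt1 (GRMZM2G005624) had 7.73, 52.0 and 20.9, also lowest in replicate 1 and under that level.

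In contrast, the AP2 genes ids1 and sid1 had 1441, 1715 and 1537 and 243, 219 and 180. The LEAFY-type gene zfl1 had 942, 764 and 706. Neither these nor any other member with a mean of at least 50 was 2-fold apart, against 3.58% of all genes considered. The microRNA precursor of ts4, zma-MIR172e, was at 0 in all 3 libraries.

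The SBP-box genes ub2 and ub3 were highest in replicate 1, the library in which ra1 and ra3 were lowest. These factors are known for limiting how many lateral primordia a meristem starts. The levels were 2835, 1718 and 1688 for ub2 and 5891, 3353 and 3365 for ub3. In both, replicate 1 stood alone and high while replicates 2 and 3 were nearly equal, with ratios of 1.68 (interval 1.58 to 1.79) and 1.76 (interval 1.68 to 1.83). The ligule gene lg1 had 184, 130 and 117 and tga1, the glume architecture gene, had 108, 108 and 94.0. The bZIP gene lg2, kept in the same list, was also highest in replicate 1. Of the 5 members 4 were highest there by every scaling tried, whereas tga1 had 112 reads in both replicate 1 and replicate 2 and was highest in replicate 2 with scaling by total reads. None reached 2-fold, against 3.58% of all genes considered. Of all genes considered, 32.5% were highest in replicate 1.

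The wider SBP-box family of 24 named genes, gathered after values had been seen, did not share this direction. Of its 21 members with a mean of at least 50, 9 were highest in replicate 1, 6 in replicate 2 and 6 in replicate 3. Only sbp6 with 3556, 2385 and 1629 and sbp2 with 48.3, 97.3 and 90.5 were 2-fold apart, in opposite directions. Over all genes considered the share was 3.58%. The family member with most reads, sbp16, had 10393, 11331 and 14448.

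The floral MADS-box genes ranged from 0 to a mean of 4078. The AP1-type gene zap1 had 1757, 1881 and 2253, m5, also named SOC1, had 1744, 1892 and 1628 and ZAGL1 had 2232, 2471 and 2208. MADS36 had 4106, 4395 and 3734. The ratios of these genes did not exceed 1.28.

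Several genes known from floral organs had few reads or none. The AGAMOUS-type genes ZAG1 and zag2 had 0, 0.964 and 3.48 and 0, 0 and 3.48. The related gene ZAG5 was at 0. Not all AGAMOUS-type genes were this low: ZMM2 (GRMZM2G359952), also named AGAMOUS, had 106, 70.3 and 95.1, a mean of 90.6. The identifiers named zmm2, GRMZM2G492156 and GRMZM2G316366, had means of 26.6 and 0.709. The B-class gene si1, which specifies stamens and lodicules, had 12.6, 13.5 and 10.4, and ZAG3, the bearded-ear gene, had 0, 0 and 1.16. The PISTILLATA-type B-class gene zmm16, also sts1, had 501, 526 and 630. Reads of zmm8/zmm14 were confined to replicate 2 apart from 1 read, at 0, 62.6 and 1.16.

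None of the 10 MADS-box genes of the list with a mean of at least 50 was 2-fold apart. In the wider family 4 of the 19 were, against 3.58% of all genes considered. That family of 41 named genes was gathered after values had been seen. The tunicate1 gene m19, whose misexpression gives pod corn, had 2039, 903 and 1646. Similarly m26 had 938, 361 and 729 and MADS34 had 790, 337 and 592. All 3 were highest in replicate 1 and lowest in replicate 2, with ratios of 2.26, 2.60 and 2.34. The fourth, m21, had 113, 85.8 and 211, and m20, under the level considered, had 50.2, 5.78 and 70.8. These 5 were lowest in replicate 2, whereas zmm8/zmm14, also under that level, was highest there. Of the 19 members considered, 9 were lowest in replicate 2, which was lowest at 30.9% of all genes considered. Without replicate 2 none of the 20 members then considered was 2-fold apart, against 503 of 18494 over all genes.

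Sex in the tassel is set by loss of the pistils, which needs jasmonate. Of the genes of the sex determination list, ts1, ts2 and opr7 were lowest in replicate 1 and highest in replicate 3. The lipoxygenase gene ts1 had 139, 171 and 386, a ratio of 2.78 (interval 2.28 to 3.40). The dehydrogenase gene ts2 had 104, 154 and 224, a ratio of 2.15, and the jasmonate synthesis gene opr7 had 987, 1156 and 2139, a ratio of 2.17. These 3 were the only members of the 10 considered that were 2-fold apart, against 3.58% of all genes considered.

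Its close copy opr8 was flat, at 395, 397 and 405. The gibberellin and brassinosteroid genes of the list were flat too: the DELLA gene D8 had 3274, 3294 and 3391, an1 had 929, 867 and 883, na1 had 193, 205 and 189 and d1 had 121, 110 and 109. Only d3, at 649, 545 and 790, moved by as much as 1.45-fold. The jasmonate-inactivating gene ts5 had 1.93, 2.89 and 3.48, no more than 3 reads per library.

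Flowering-time genes had a median ratio of 1.35, against 1.17 over all genes considered. The florigen gene ZCN8, made in leaves, had 18.4, 18.3 and 15.1, and id1, a leaf gene as well, had 0.966, 0.964 and 0. The bZIP partner of florigen in the meristem, DLF1, had 1174, 779 and 803, with replicate 1 highest by 1.51-fold. The phytochrome gene PhyB2 had 285, 428 and 468, lowest in replicate 1 by 1.64-fold, and ZCN14, a relative of the florigen gene, had 106, 160 and 123. The clock gene gi1 had 9076, 9484 and 7972. ZCN2, under the level considered, had 31.9, 13.5 and 19.7. None of the 6 members considered was 2-fold apart, against 3.58% of all genes considered, a share at which so small a list usually holds none.

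The jasmonate genes of sex determination belong to a larger set that differed between the same libraries. The groups that follow overlap, so their counts are not separate results. The stress, wound and defence list shares genes with the families, lox1 among them. The gene ts1 is counted again as LOX8 among the lipoxygenases, and opr7 is drawn again with the AOS and OPR genes. In the list of stress, wound and defence genes, 26 of 93 with a mean of at least 50 were 2-fold apart, 28.0% against 3.58% of all genes, and 63 of the 93 were highest in replicate 3, against 38.1% of all genes. Without replicate 1 the count was 9 of 94, against 285 of 18531 over all genes. Without replicate 3 it was 9 of 91, against 229 of 18468.

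Lipoxygenases, which start the synthesis of jasmonate and other oxylipins, differed widely between libraries. The family was picked out after values had been seen. Beside lox1, lox10 had 190, 6749 and 7196, a ratio of 37.8 (interval 32.8 to 43.8), and lox5 had 1429, 4873 and 9170. The genes lox3, with 881, 2535 and 2655, and lox6, with 278, 821 and 1391, kept the order. Of 9 members considered 6 were 2-fold apart, against 3.58% of all genes considered. In this family 8 of the 9 were lowest in replicate 1 and 8 highest in replicate 3, against 33.5% and 38.1% of all genes. Without replicate 1 a single member of the 9 was 2-fold apart, against 285 of 18531 over all genes.

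Not every member followed. The gene lox9 had 953, 974 and 954, and lox4 had 1100, 920 and 1313. Summed over the 11 named lipoxygenase genes, the reads came to 10260, 33161 and 50435 normalized counts.

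Genes of the next step of jasmonate synthesis, also picked out after values had been seen, had the same order. The allene oxide synthase genes aos1, with 147, 568 and 2454, and aos2, with 847, 1388 and 4035, were lowest in replicate 1 and highest in replicate 3, by 16.7-fold and 4.76-fold. For these, unlike lox10, the larger step lay between replicates 2 and 3.

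The TIFY genes, many of which encode the JAZ repressors that jasmonate removes and at the same time induces, showed the same order. TIFY27 had 1252, 1999 and 4247, TIFY6 had 915, 1153 and 2071, TIFY24 had 489, 649 and 1200 and TIFY28 had 14.5, 26.0 and 122. This family, too, was picked out after values had been seen. Of 14 considered, 7 were 2-fold apart, against 3.58% of all genes, and 12 were highest in replicate 3, against 38.1%. Without replicate 3 none of 13 was 2-fold apart, against 229 of 18468 over all genes. The order was not shared by TIFY21, at 1310, 1488 and 1406, or TIFY23, at 1757, 1745 and 1573. In TIFY12 the values were close, at 3031, 3180 and 3209.

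**Figure D4:**
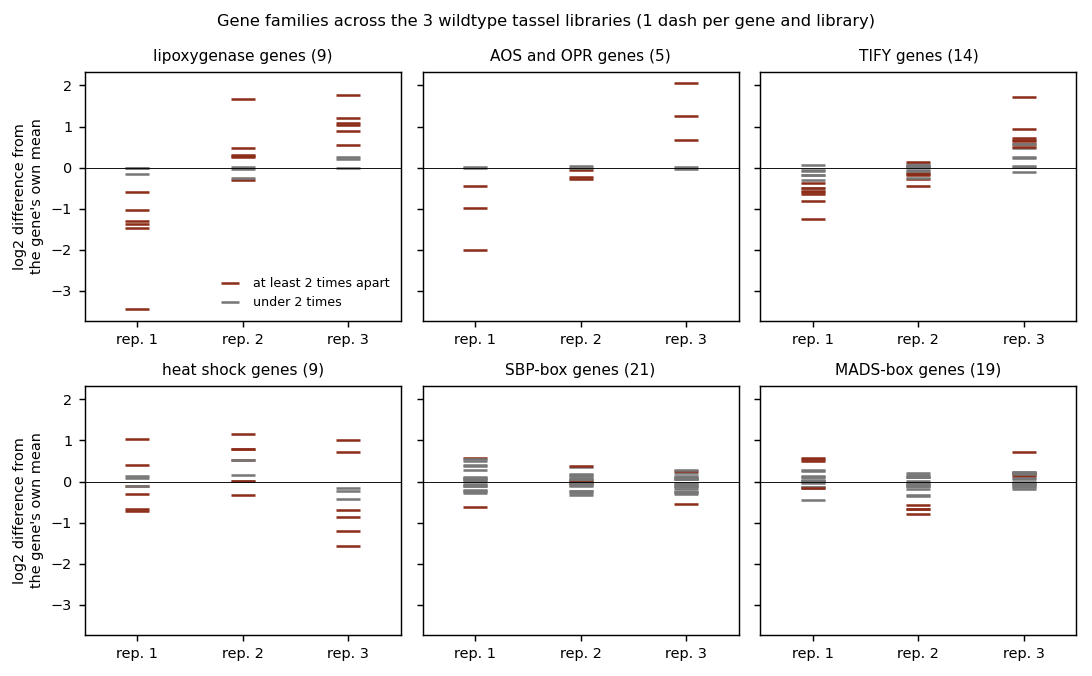
Difference of each gene from its own mean on the scale of log2(normalized count + 1) (vertical axis) in the 3 libraries (horizontal axis) for 6 gene families, 1 dash per gene with a mean of at least 50 and dark red for genes at least 2-fold apart. Most lipoxygenase, AOS and OPR, and TIFY genes lie below their mean in replicate 1 and above it in replicate 3, with lox9 and TIFY23 among the exceptions, 7 of the 9 heat shock genes drawn are lowest in replicate 3, and SBP-box and MADS-box genes show no common direction.

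The named gene with the widest ratio was RIP (GRMZM2G119705, also rip2), a ribosome-inactivating protein gene, with 4.83, 477 and 188. The first value is 5 reads, and the ratio of 98.7 has an interval of 42.02 to 305. Replicate 1 stood apart there while replicate 2 was highest. The bHLH gene bHLH116, with 180, 997 and 4938, and the ethylene synthesis gene acs7, with 46.4, 41.4 and 392, stood out through replicate 3. WRKY53 had 44.5, 122 and 295, the glutathione transferase gene GST25 5.80, 72.3 and 151 and the potassium transporter gene HAK1 24.2, 95.4 and 291. Of the 20 named genes with the largest ratios, those highest in replicate 2 were RIP, mtl2 and DL1, and the others were highest in replicate 3. The gene acs7 alone was lowest in replicate 2, and the remaining 19 were lowest in replicate 1. Of all 663 varying genes, 48.4% were lowest in replicate 1 and highest in replicate 3. A further 13.1% were lowest in replicate 1 and highest in replicate 2.

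Some measures of depth and of other tissue also differed between the libraries. Replicate 3 had the fewest reads. The summed leaf markers, at 901, 1025 and 1024, were lowest in replicate 1, and the vascular ones, at 889, 931 and 1084, were highest in replicate 3. Leaf markers other than Pep1 and ME1 had fewer reads. Ppdk1 (33.8, 54.9 and 90.5), lhcb7 (10.6, 14.5 and 32.5), ssu1 and pep1 (GRMZM2G083841) were highest in replicate 3, and lhcb3 (14.5, 12.5 and 9.28) was lowest there. The 13 tassel markers were highest in sum in replicate 1, which rested on ub2 (2835, 1718 and 1688) and ub3 (5891, 3353 and 3365). The tassel marker with most reads, kn1, at 7574, 8595 and 7706, was lowest in replicate 1. The phenylpropanoid gene PAL1, in the list of vascular genes, had 886, 1615 and 2541. The part of depth or of tissue composition in the variation was not tested.

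Heat shock genes differed between libraries without a common order. In the list of heat shock genes and chaperones, 7 of 36 considered were 2-fold apart (19.4%), against 3.58% of all genes considered. Of the 36, 18 were highest in replicate 3 and 16 lowest there, against 38.1% and 35.6% of all genes. The disaggregase gene hsp101 had 1450, 4008 and 993, highest in replicate 2 by 4.04-fold over replicate 3. The small heat shock gene hsp22 had 1090, 2006 and 727, and hsp1, an HSP70 gene, had 1365, 1788 and 447. HSP90-1 had 1121, 787 and 184, a ratio of 6.08, and was highest in replicate 1.

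These 4 were all lowest in replicate 3. In contrast hsp18f, with 2742, 3465 and 8757, and hsp82, with 59.9, 100 and 164, were highest there. The heat shock factor gene Hsf17, at 406, 442 and 209, was lowest in replicate 3, and Hsf05 had 47.4, 104 and 67.3. Among chaperone genes with more reads, Hsp70 (GRMZM2G310431) had 6671, 10210 and 5343, a ratio of 1.91. The gene bip1, of the endoplasmic reticulum, had 9476, 9510 and 6593 and the mitochondrial CPN60II had 9593, 8402 and 7326. Among 9 genes of the HSP70, HSP90, HSP101 and small heat shock families, grouped after values had been seen, 7 were lowest in replicate 3, against 35.6% of all genes. Without replicate 3, 1 of the 9 was 2-fold apart, against 229 of 18468 over all genes.

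Among genes of basic cell functions no member was 2-fold apart, against 3.58% of all genes considered. The median ratios were 1.19 for the cell cycle list, 1.13 for histones and chromatin, 1.17 for translation and 1.21 for anther and meiosis genes, against 1.17 over all genes considered. These lists had 15, 18, 43 and 10 members with a mean of at least 50. The replication clamp gene pcna2 had 4130, 4112 and 3470 and the helicase gene MCM6 had 3510, 3681 and 3061. The histone gene his2b5 had 8425, 8551 and 7841, and nfc101, a histone-binding protein gene, had 8964, 9164 and 9079. Of the 43 translation genes, 33 were highest in replicate 1, against 32.5% of all genes considered.

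Auxin response factors, transcription factors of the auxin pathway collected after values had been seen, had a median ratio of 1.26. None of the 15 considered was 2-fold apart, against 3.58% of all genes. The abundant members ARF13, with 13042, 12029 and 11217, and ARF28, with 12320, 11058 and 11137, differed by 1.16-fold and 1.11-fold, while ARF2, with 264, 396 and 430, differed by 1.63-fold.

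**Figure D5:**
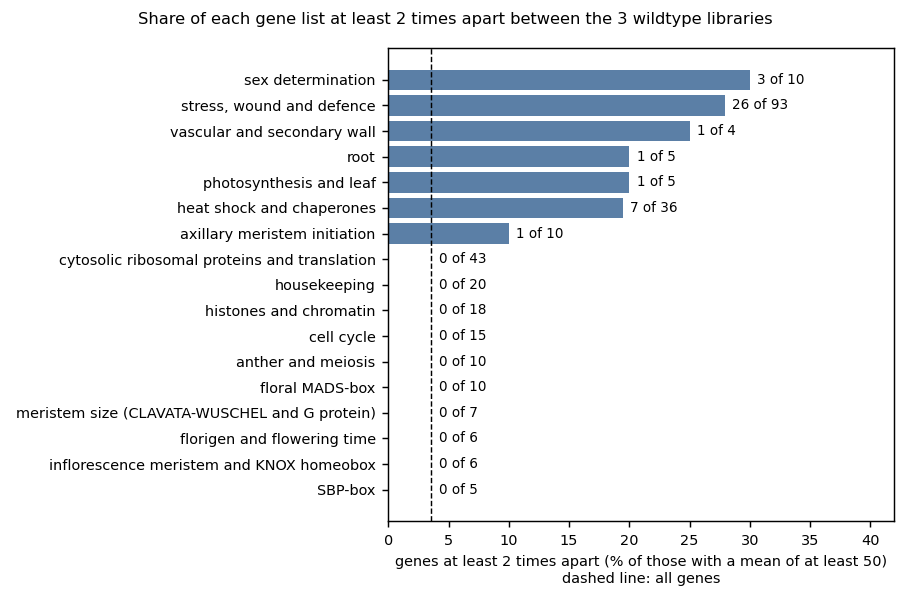
Percentage of each list's genes with a mean of at least 50 that were at least 2-fold apart between the 3 libraries, with the counts beside the bars and the value for all genes, 3.58%, as a dashed line. The ramosa list (2 of 3) and the spikelet list (0 of 3) are left out because they have fewer than 4 such genes. The longest bars are sex determination (3 of 10) and stress, wound and defence (26 of 93), and cell cycle, histone, ribosomal and floral MADS-box lists are at 0.

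The steadiest named genes with a mean of at least 1000 came from several functions. AMA1 (GRMZM2G172369) had 5484, 5484 and 5486, a coefficient of variation of 0.0228%. The small GTPase gene rop2 had 1738, 1744 and 1737, the cohesin protector gene sgo1 had 1375, 1360 and 1358 and the cellulose synthase gene CesA-3 had 7272, 7278 and 7185. These genes were picked as the 10 lowest of all named genes at this level. For AMA1 counting error alone leaves an interval of 0.962 to 1.04 around its ratio.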

How the data were processed

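RNA of 9 field-grown maize tassel samples was sequenced, and the 3 wildtype libraries are described. Stranded TruSeq mRNA libraries were made, per the labels' protocols. The submitters' processing notes list Trimmomatic, TopHat2 2.1.1, HTSeq and DESeq2 as tools, without settings. Neither genome build nor strand setting is given in the sources used here, so reads of antisense and overlapping genes, and of near-identical copies, are uncertain. The deposited signal values are counts scaled by the authors with 1 DESeq2 size factor per library, per the file headers and the stepped values. Divided by the smallest value of its library, every value (100%) came out whole to within 0.1 reads, which gave the reads back. They were identical for wildtype in both deposited tables.

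Gene names were read from RefSeq, assembly Zm-B73-REFERENCE-NAM-5.0: 18476 identifiers matched 1 gene, 521 several, and 2822 had a descriptive name. Of 142 regulator symbols, 50 had no match or are not reported here. Genes with a mean of at least 50 were called varying at a highest-to-lowest ratio of at least 2, with each library floored at 3 reads. Ratios of genes at 0 therefore depend on this floor. Named genes were all list members, the 25 with most reads, the 20 largest and 10 smallest variations with a descriptive name, and 4 per other list; genes named outside this rule were chosen after their values were seen. The members and lists were chosen with earlier results of these data known. Dispersions came from edgeR 4.0.16 and DESeq2 1.42.0 (R 4.3.3) on the recovered reads of 1 group; other steps used Python 3.11.15. The calculation was tested on simulated data. Alternatives were other scalings, filters, pseudocounts, ratio thresholds and libraries left out. Coding lengths and sequences were not used here.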

Additional observations from a re-analysis of the deposited data

How the results depend on the processing

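The levels of all 87 regulators moved by less than 1 SD under 3 other scalings. A mean of 3 values cannot move by 1 SD when 1 is left out, so the same outcome without each library says nothing of stability: zmm8, with a mean of 21.3, had 0.58 without replicate 2. The count of 663 varying genes was 666 with scaling by total reads, 657 with TMM and 658 with DESeq2 factors, sharing 659, 649 and 655 genes with it. It was 229 to 503 with 1 library left out. Filters gave 1772 genes at a mean of at least 10, 270 at 200 and 3099 with none, and ratios gave 2066 at 1.5 and 225 at 3. A biological coefficient of variation of at least 0.35 held for 234 genes with edgeR and 372 with DESeq2. Looser thresholds and lower means admit more genes by construction. The ratio of a gene over 2 libraries cannot exceed its ratio over 3, so leaving a library out lowers the count largely by construction. The cause of the other differences was not tested. Counts of varying genes in single lists also changed with a library left out, an alternative chosen after seeing the data for the stress, heat shock and sex determination lists and the added families. The ranking per coding length was not run. No paired analysis was possible because 1 group is described and no groups are compared. Depth limits genes under a mean of about 10, where 1 read is a large part of the value.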

Other observations

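Genes outside the lists that differed between the libraries, named here after their values were seen, included further defence metabolism. Of the 127 varying genes with a descriptive name, 87 were highest in replicate 3, 22 in replicate 2 and 18 in replicate 1. Of all 663 varying genes these numbers were 409, 131 and 123, so most varying genes of any kind were highest in replicate 3. The jasmonate-response factor gene MYC2a had 724, 1776 and 3138 normalized counts in replicates 1, 2 and 3. Of the varying genes of benzoxazinoid defence compounds, BX4 had 2561, 3638 and 5728, bx6 had 1759, 2993 and 4750 and bx9 had 634, 1021 and 1608, in the same order. The gene bx2 of this pathway, with 27.1, 88.6 and 61.5, was highest in replicate 2. Of plastid isoprenoid synthesis, dxs2 had 205, 151 and 860 and dxr had 196, 293 and 720, both highest in replicate 3. The thiamine synthesis gene thi1-2 had 383, 1426 and 334, with replicate 2 alone high.

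The microRNA precursor with most reads was zma-MIR167d, at 69.6, 71.3 and 42.9, followed by zma-MIR168b at 33.8, 53.0 and 44.1. The precursor zma-MIR529 had 0, 31.8 and 10.4, and zma-MIR156j had 1.93, 21.2 and 10.4. Both belong to families that target SBP-box genes in plants, and both were lowest in replicate 1, where ub2 and ub3 were highest. The precursor zma-MIR168b was lowest there too, as were 33.5% of all genes considered, whereas zma-MIR167d was lowest in replicate 3. The precursors zma-MIR529 and zma-MIR156j were picked out after values had been seen. These are low counts, and a relation to the SBP-box genes was not tested.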
